A study of Homo sapiens with 12 samples.

Results

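The 77 genes described here encode the proteins of the cytosolic ribosome. They were the rows of the count table whose symbol is RPL or RPS followed by digits and at most 1 final A or X, together with RPLP0, RPLP1, RPLP2 and RPSA, which gave 77 of 60612 rows. Of these, 46 encode proteins of the large (60S) subunit and 31 encode proteins of the small (40S) subunit. The pattern uses no measured value, although the family was chosen with earlier results of these data known. Pseudogenes, L-suffixed paralogues and kinases that carry a similar symbol were left out by the pattern.

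RNA sequencing was carried out on ZR-75-1 cells, an oestrogen-receptor-positive luminal breast cancer line, in 4 groups of 3 samples each that the labels call biological replicates. The groups were sgControl cells in DMSO, sgControl cells in 500 nM abemaciclib, RB1 knockout cells in DMSO and RB1 knockout cells in 500 nM abemaciclib, and treatment lasted 5 days in all 4. Abemaciclib inhibits CDK4 and CDK6, the kinases that phosphorylate the retinoblastoma protein Rb, which RB1 encodes. The comparisons therefore ask how ribosomal protein mRNAs change under the drug, whether that change differs when RB1 is lost, and how they differ between genotypes under each treatment. All cells had gone through CRISPR-Cas9 editing, with a non-targeting sgRNA in sgControl and an sgRNA against RB1 in the knockout. The knockout cells were grown from sorted clones, whereas the methods do not say whether the sgControl cells were cloned. The number of clones behind a group is not given, so RB1 loss and other differences that arose with cloning cannot be told apart.

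Ribosomal proteins assemble with ribosomal RNA into the particles that translate mRNA, and a growing cell makes the subunits in equal numbers. Most of their mRNAs begin with a C followed by a run of pyrimidines, the 5′ terminal oligopyrimidine (TOP) tract, through which growth signals via mTORC1 and LARP1 control how well these mRNAs are translated and how stable they are. Several members also act outside the ribosome. RPL5 and RPL11 bind MDM2 when ribosome assembly fails, and RPS19 and RPS26 are among the genes mutated in Diamond-Blackfan anaemia.

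The start sites of the genes on which the results turn are printed first, because the tract at the start is the sequence feature this family is known by. Each line holds 30 bases of GRCh38.p14 from RefSeq, read 5′ to 3′ on the gene's own strand, from 10 bases before the annotated start to 20 from it, so the annotated first base is base 11. Capitals mark a C followed by further pyrimidines, at least 5 bases in all, whose C lies within 5 bases of the annotated start.
RPS27, chr1:153990752-153990781, plus strand: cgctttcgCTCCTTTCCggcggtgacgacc
RPS19, chr19:41860245-41860274, plus strand: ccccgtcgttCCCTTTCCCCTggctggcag
RPSA, chr3:39406710-39406739, plus strand: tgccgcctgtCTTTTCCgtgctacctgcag
RPL21, chr13:27251548-27251577, plus strand: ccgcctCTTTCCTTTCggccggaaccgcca
RPL22, chr1:6199576-6199605, minus strand: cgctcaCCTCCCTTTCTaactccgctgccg
RPL12, chr9:127451387-127451416, minus strand: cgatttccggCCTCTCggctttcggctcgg
RPS4X, chrX:72277229-72277258, minus strand: ctccagccccaatttctacgcgcaccggaa
RPS27L, chr15:63157458-63157487, minus strand: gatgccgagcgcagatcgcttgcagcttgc
EEF2, chr19:3985444-3985473, minus strand: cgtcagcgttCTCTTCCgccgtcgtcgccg
RPS27, RPS19, RPSA and RPL21, which gave the lowest log2 fold changes under abemaciclib in sgControl cells, carry such a tract, and so does RPL22, which gave the highest. RPS4X, which was also higher under the drug, has none in this window, nor has the paralogue RPS27L. EEF2 is shown as a TOP gene outside the ribosome. RPS19 has 2 annotated starts, and the first listed that holds a tract is printed. Promoter entries were found for 62 of the 77 genes. A gene with several annotated starts was counted as having a tract if any of them had one, among members and all genes alike. A tract began exactly at the annotated start in 46 of these 62 (74.2%), against 5.1% of the 27305 genes with an entry, and within 5 bases of it in 53 (85.5%), against 25.2%.

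The family spanned a wide range of levels. Mean normalised read counts, that is counts divided by the library's median-of-ratios size factor, ran from 27.8 for RPS10 to 405723 for RPS2, with a median of 44766. The 10 genes with the most counts held 34.7% of the family's counts. Per kilobase of the canonical transcript, the highest levels were those of RPS2 at 429337 normalised counts per kb, RPS27 at 165351 and RPLP0 at 147508. The lowest were RPS10 at 47.3 and RPL36A at 59.0 normalised counts per kb. Both share exons on the same strand with another annotated gene over 84.0% (RPS10) and 43.8% (RPL36A) of their exon length, so reads there could have been counted to neither gene, and their levels are uncertain. RPL17, with 96.9% of its exon length shared, and RPL26, with 65.3%, carry the same uncertainty.

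Library totals ran from 39907318 to 81636393 counts, and every member had counts in all 12 libraries. RB1 checked the labels, with 2252 to 4825 normalised counts in the 6 sgControl libraries and 39.6 to 63.5 in the 6 knockout libraries. All 8 luminal epithelial markers had at least 10 counts in every library. Of the markers of other cell types, 1 of 5 fibroblast genes (COL1A1), 0 of 4 leukocyte genes (CD3E at 0 in every library) and 1 of 3 endothelial genes (VWF) did so. The summed fibroblast list reached 34.7 to 47.0 CPM in DMSO and 46.4 to 52.3 in abemaciclib, the endothelial list 0.370 to 0.747 in DMSO and 1.56 to 1.87 in abemaciclib, and the leukocyte list at most 0.276. Their part in the results was not tested. Counts give each gene's share of the sequenced RNA, so less of a gene's RNA per cell cannot be told apart from a change in cell number or in total RNA.

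Replicate 1 of sgControl in DMSO stood apart from the other libraries. It held the highest value of its group for 76 of the 77 genes and the highest of all 12 libraries for 65, and the median member lay 0.35 log2 units above its group mean, against -0.07 in replicate 2 and -0.27 in replicate 3. Replicate 3 held the lowest value of its group for 75 genes. The deviation followed transcript length among other genes too. In replicate 1, 622 other genes under 1 kb had a median deviation of 0.24 log2 units, 1958 genes of 1 to 2 kb of 0.15, 4046 genes of 2 to 4 kb of 0.03 and 4625 genes over 4 kb of -0.13. In replicate 3 the same medians were -0.18, -0.11, -0.02 and 0.08. Ribosomal protein transcripts are short, with a median length of 785 bases against 3436 for other genes. The main counts of each comparison are therefore given with all 12 libraries and with the 11 that remain without this replicate.

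Ribosomal protein mRNAs took a smaller share of the counts in abemaciclib-treated sgControl cells than in either knockout group. The 77 genes held 8.95%, 7.16% and 6.63% of counts in sgControl DMSO replicates 1 to 3 (7.58% ± 1.21, SD, n = 3) and 6.53%, 5.98% and 6.34% in sgControl abemaciclib (6.28% ± 0.28). In the knockout they held 7.67%, 7.96% and 7.70% in DMSO (7.78% ± 0.16) and 7.97%, 7.58% and 8.12% in abemaciclib (7.89% ± 0.28). The sgControl libraries in abemaciclib lay below every other library, the nearest being sgControl DMSO replicate 3, while the 2 knockout groups overlapped. Transcripts of the mitochondrial genome had mean shares of 3.49% and 7.73% in sgControl in DMSO and abemaciclib and of 3.98% and 6.13% in the knockout. Their part in the member share was not tested beyond leaving those transcripts out of the total, which gave member shares of 7.86%, 6.81%, 8.10% and 8.41% in the same order of groups. On that denominator the sgControl groups overlapped, at 6.82% to 9.32% in DMSO and 6.45% to 7.14% in abemaciclib.

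The balance between the subunits also differed. The ratio of large- to small-subunit counts, which no scaling between libraries can change, was 1.25 ± 0.02 in sgControl in DMSO, 1.43 ± 0.004 in sgControl in abemaciclib, 1.26 ± 0.007 in the knockout in DMSO and 1.29 ± 0.003 in the knockout in abemaciclib (SD, n = 3 each). The 3 libraries of abemaciclib-treated sgControl cells lay between 1.43 and 1.44, above the other 9, which lay between 1.23 and 1.30. Without RPS2, the member with the most counts, the 4 means were 1.59, 1.81, 1.64 and 1.70. As sums over chosen genes, these ratios are given as descriptions with no test.

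**Figure D1:**
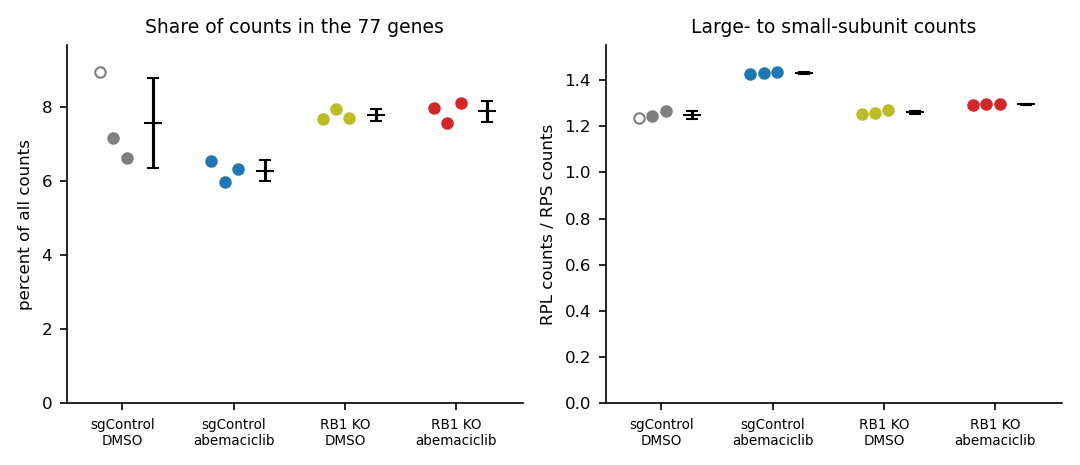
Percent of all counts in the 77 genes (left) and counts of the 46 large-subunit genes divided by those of the 31 small-subunit genes (right), with 1 point per library and the mean ± SD of 3 libraries beside each group. The open circle is sgControl DMSO replicate 1, which has the highest share (8.95%) and an unremarkable ratio, while the 3 sgControl libraries in abemaciclib have ratios of 1.43 to 1.44.

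In sgControl cells, abemaciclib lowered a set of mostly small-subunit mRNAs by up to 0.73 log2 units and raised a few others. The largest falls were those of RPS27, RPS19, RPSA and RPL21, and the largest rises those of RPL22 and RPS4X. With all 12 libraries, 21 of the 77 genes (27.3%) were lower and 4 (5.2%) higher (DESeq2 Wald test, 2-sided, Benjamini-Hochberg adjusted p under 0.05 over all rows tested), where 23.9% of the 23512 rows tested were lower and 24.1% higher. The median log2 fold change was -0.16 for the family and 0.01 for all rows tested. Among small-subunit genes 14 of 31 were lower and 1 higher, with a median of -0.24, and among large-subunit genes 7 of 46 were lower and 3 higher, with a median of -0.10. Without sgControl DMSO replicate 1, 13 genes were lower and 22 higher, against 25.8% and 25.7% of rows, and the family median was 0.02. Without replicate 3 of the same group, 48 were lower and 3 higher, against 25.4% of rows in either direction. The direction of the family as a whole in sgControl cells and the size of its count thus rested on single libraries, and with all 12 libraries the share of lower members was near that of all rows.

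**Figure D2:**
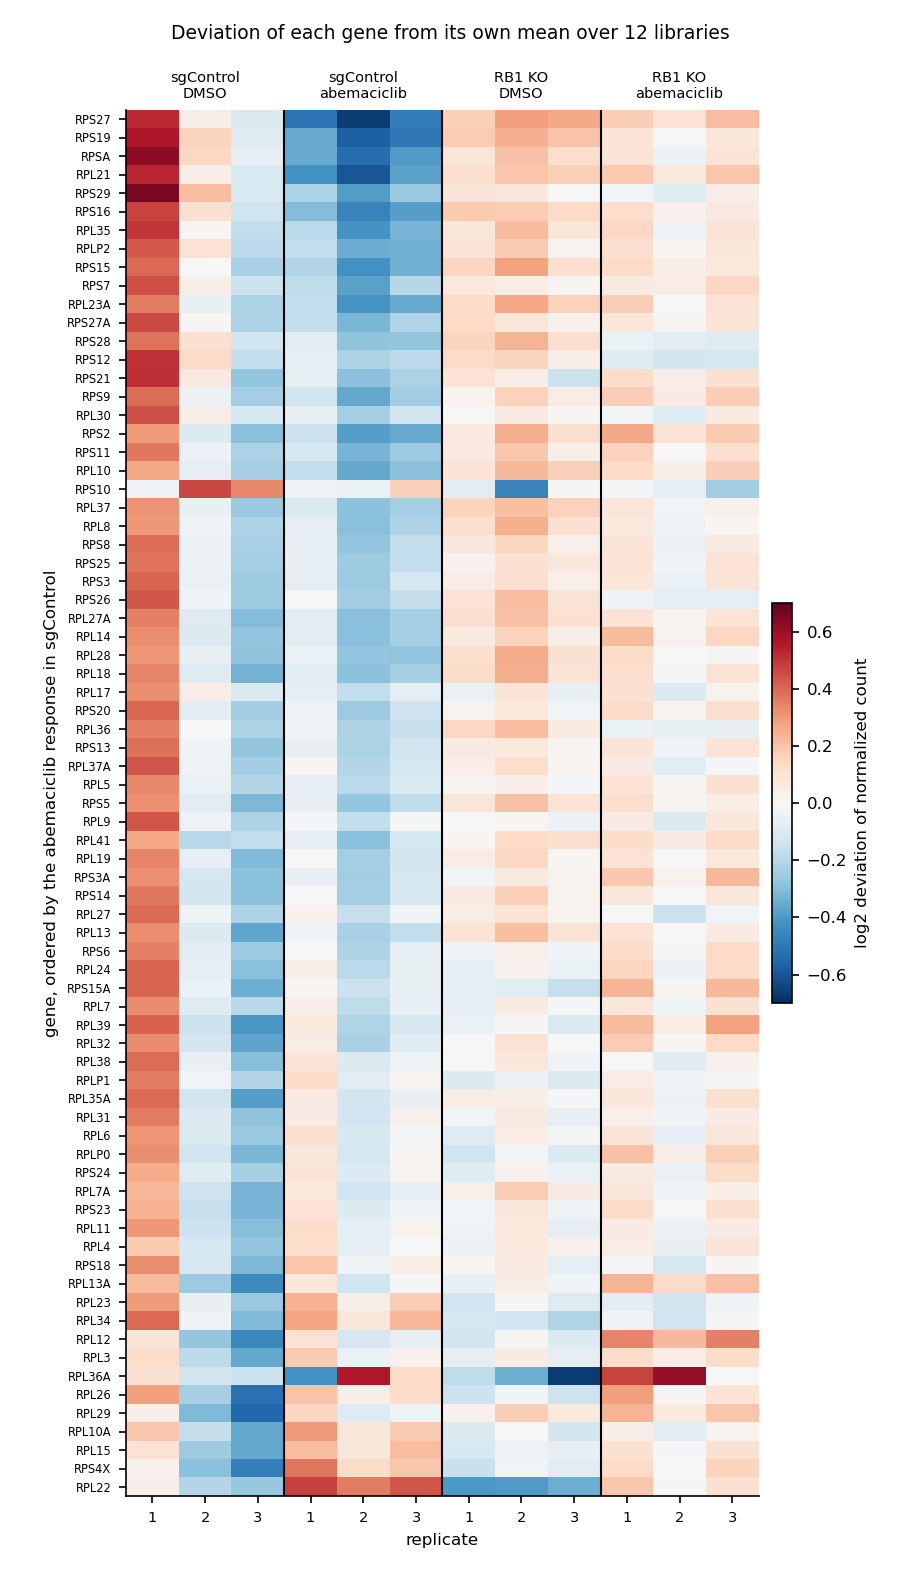
Log2 deviation of each gene's normalised count from its own mean over the 12 libraries, with 1 column per library in the 4 groups and 75 of the 77 genes ordered by their log2 fold change under abemaciclib in sgControl, lowest at the top. Red is above the mean and blue below. The first column, sgControl DMSO replicate 1, is red for nearly every gene, and the sgControl abemaciclib columns run from blue for RPS27 at the top to red for RPL22 at the bottom.

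The genes at the lower end kept their calls whichever library was left out. A group of 13 was lower with all 12 libraries and in each of the 12 fits that left out 1 library, among them RPSA, RPS7, RPS15, RPS16, RPS19, RPS27, RPS28, RPS29, RPL21, RPL23A, RPL35 and RPLP2. The share of all rows that kept such a call in every fit was not computed, so the size of this group has no background beside it. Over all rows 23.9% were lower with all 12 libraries. RPS27 (chr1:153990762-153992155), a zinc-finger protein of the 40S subunit, had 81338, 58109 and 52661 normalised counts in sgControl DMSO and 39509, 35686 and 40507 in sgControl abemaciclib. The groups did not overlap, and its log2 fold change was -0.73 ± 0.12 (SE, adjusted p = 6.1e-09, DESeq2), or -0.52 ± 0.06 without replicate 1. RPS19 (chr19:41860255-41872925), needed for 40S maturation, fell from 87729, 66164 and 55924 to 46400, 39875 and 42008. All 3 treated libraries again lay below all 3 controls, with a log2 fold change of -0.71 ± 0.12 (adjusted p = 1.3e-08, DESeq2), or -0.51 without replicate 1. RPSA (chr3:39406716-39426255), a 40S protein also known as the laminin receptor precursor, fell from 181346, 129875 and 112782 to 91846, 80941 and 88982. This was a log2 fold change of -0.70 ± 0.13 (adjusted p = 1.6e-07, DESeq2), or -0.48 without replicate 1.

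RPL21 (chr13:27251362-27256691) was the large-subunit gene with the largest fall. Its normalised counts were 29067, 20675 and 18631 in DMSO and 14922, 13266 and 15450 in abemaciclib, a log2 fold change of -0.65 ± 0.12 (adjusted p = 6.4e-07, DESeq2) that was -0.44 without replicate 1. RPS29, a small zinc-binding 40S protein, changed by -0.58 and RPS16, a 40S protein near the decoding site, by -0.55, or by -0.35 and -0.37 without replicate 1. RPLP2, which with RPLP1 forms the stalk that recruits elongation factors, changed by -0.42, or -0.25 without replicate 1. Its partners on the stalk did not pass, with log2 fold changes of -0.04 for RPLP1 and 0.01 for RPLP0. The other 6 genes of the group lay between -0.45 (RPL35) and -0.34 (RPS28).

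A few ribosomal protein mRNAs rose. RPL22, RPL15 and RPS4X were higher with all 12 libraries and in each fit that left out 1 library, and RPL10A was higher with all 12 and without replicate 1. RPL22 (chr1:6185020-6209389), an RNA-binding large-subunit protein that also regulates splicing of its paralogue's mRNA, had 13990, 11782 and 11294 normalised counts in DMSO and 18901, 17394 and 18402 in abemaciclib. Every treated library lay above every control, and the log2 fold change was 0.56 ± 0.08 (adjusted p = 1.3e-11, DESeq2), or 0.66 without replicate 1. RPS4X (chrX:72255679-72277248), an X-linked 40S protein, rose from 68434, 54695 and 48164 to 86888, 73312 and 76637, with a log2 fold change of 0.47 ± 0.11 (adjusted p = 4.4e-05, DESeq2) and 0.62 without replicate 1. RPL15 changed by 0.32 (adjusted p = 0.0021, DESeq2) and RPL10A by 0.28 (adjusted p = 0.022). RPS27 and RPS4X, a pair picked after their values were seen, show how far 2 proteins of the same subunit parted. The ratio of their counts was 1.19, 1.06 and 1.09 in sgControl DMSO, 0.455, 0.487 and 0.529 in sgControl abemaciclib, 1.05, 1.04 and 1.07 in knockout DMSO and 0.868, 0.904 and 0.881 in knockout abemaciclib.

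**Figure D3:**
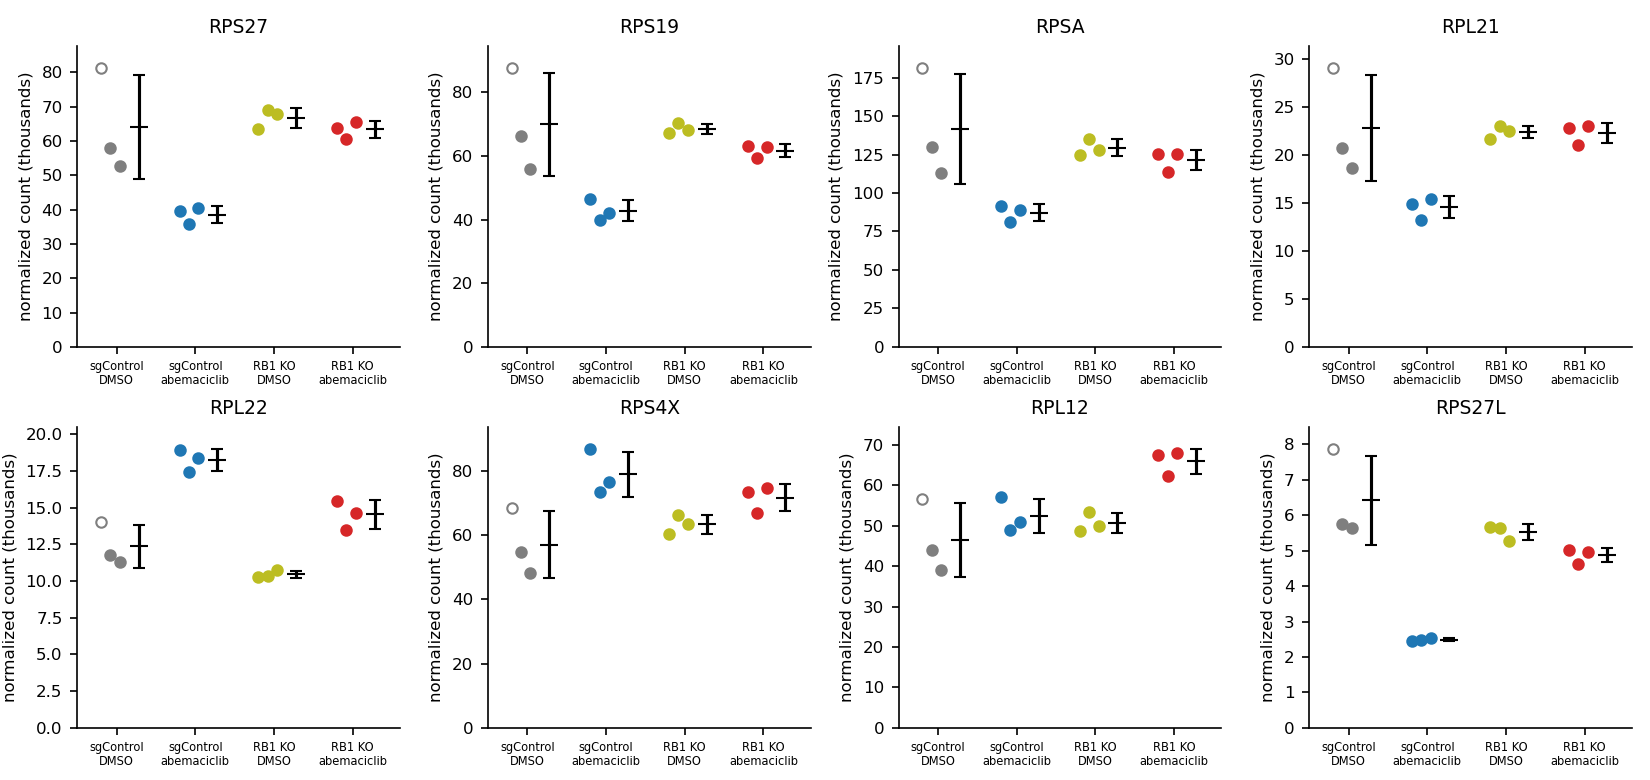
Normalised counts of 7 members and the paralogue RPS27L in each library, with the mean ± SD of 3 libraries beside each group and every axis starting at 0. The open circle is sgControl DMSO replicate 1. RPS27, RPS19, RPSA, RPL21 and RPS27L are lowest in sgControl abemaciclib, RPL22 and RPS4X are highest there, and RPL12 is highest in knockout abemaciclib.

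Several well-studied members did not pass in this comparison. The MDM2-binding proteins RPL5 and RPL11 had log2 fold changes of -0.16 (adjusted p = 0.2, DESeq2) and 0.06 (adjusted p = 0.73). RPS6, the substrate of S6 kinase, was at -0.12, RPS14, the gene of the 5q- syndrome, at -0.12, RPS3 and RPS25 at -0.21 each, and RPL3, at the peptidyl transferase centre, at 0.18. RPS2 (log2 fold change -0.28), RPL10 (-0.28) and the ubiquitin fusion gene RPS27A (-0.34) passed with all 12 libraries but not without replicate 1, at -0.10, -0.13 and -0.13. Of the genes fixed for description, RPL3, RPL11, RPL23, RPL26, RPL29 and RPLP0 passed as higher without replicate 1 and not with all 12 libraries. RPL12, which was named for its change in the knockout, did the same. The values of all these genes lay between 0.22 (RPLP0) and 0.50 (RPL26).

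**Figure D4:**
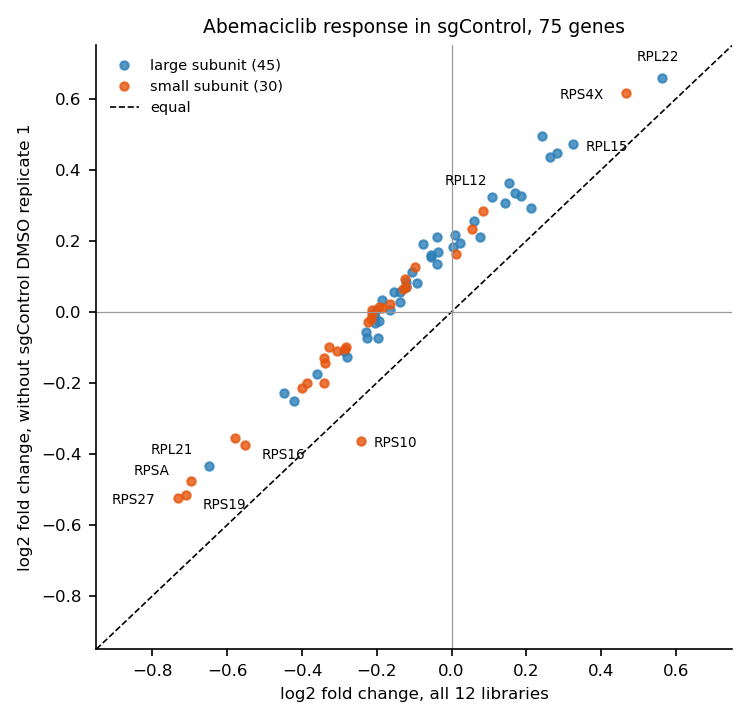
Log2 fold change under abemaciclib in sgControl with all 12 libraries (horizontal) and without sgControl DMSO replicate 1 (vertical), with 1 point per gene for 75 of the 77 genes, large-subunit genes in blue and small-subunit genes in orange. Points lie above the dashed line of equality, except that of RPS10, a gene of 27.8 mean normalised counts, and the order of the genes changes little, from RPS27 at the lower left to RPL22 at the upper right.

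To separate differences among the members from a shift of the whole family, the fit was repeated with size factors from the 77 genes alone, a scaling chosen after the data were seen. This sets the family's median change near 0 and moved the median of all rows by 0.12 log2 units in the sgControl response. On that scale 15 genes were lower and 19 higher in abemaciclib-treated sgControl cells, where 16.4% of rows were lower and 24.8% higher. All 34 also passed in the same direction when replicate 1 was left out. The lower genes were the group of 13 above with RPS12 and RPS27A. The higher genes were RPL3, RPL4, RPL6, RPL7A, RPL10A, RPL11, RPL12, RPL13A, RPL15, RPL22, RPL23, RPL26, RPL29, RPL34 and RPLP0 of the large subunit and RPS4X, RPS18, RPS23 and RPS24 of the small. Small-subunit genes thus made up 10 of the 15 lower genes and 4 of the 19 higher ones. On this scale RPS27 was at -0.57 ± 0.08 and RPS4X at 0.62 ± 0.07.

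In RB1 knockout cells the same drug changed few ribosomal protein mRNAs. With all 12 libraries, 3 of the 77 genes were higher and 1 lower, against 15.0% and 15.1% of the 18506 rows tested, and the median log2 fold change was 0.00. Without sgControl DMSO replicate 1, which enters this contrast only through the shared estimate of the spread and the scaling, 10 were higher and 7 lower, against 17.7% and 18.8% of rows. RPL12 (chr9:127447674-127451406), a large-subunit protein at the base of the stalk, rose from 48722, 53378 and 49846 normalised counts to 67421, 62274 and 67931. No treated library overlapped a control, and the log2 fold change was 0.38 ± 0.11 (adjusted p = 0.003, DESeq2). RPL22 rose from 10279, 10335 and 10734 to 15475, 13506 and 14640, a log2 fold change of 0.48 ± 0.08 (adjusted p = 5.5e-08, DESeq2). Both passed in each fit that left out 1 library. RPL36A (0.77, adjusted p = 0.044, DESeq2), which shares exons with another gene, passed with all 12 libraries but not in every such fit. RPS27, RPS19, RPSA and RPL21, which fell in sgControl, had log2 fold changes of -0.08, -0.15, -0.09 and -0.01 in the knockout and did not pass with all 12 libraries. RPS19 passed there without replicate 1 (-0.15, adjusted p = 0.047, DESeq2).

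The response of a set of genes differed between the genotypes. The interaction term, the log2 response in the knockout minus that in sgControl, passed as positive for 8 of the 77 genes and as negative for 0, against 21.0% and 20.2% of the 21008 rows tested, and edgeR gave the same counts. At an unadjusted p under 0.05 there were 11 positive and 0 negative members with either tool. The family median was 0.15, against 0.03 for all rows. Without replicate 1 there were 7 positive and 10 negative calls, against 22.8% and 22.0% of rows, and the median was -0.03. Without sgControl DMSO replicate 3 there were 32 positive and 0 negative calls, against 21.6% and 20.6% of rows. In DESeq2, RPS27 (0.65 ± 0.17, adjusted p = 0.00047), RPL21 (0.64 ± 0.17, adjusted p = 0.00091), RPSA (0.61 ± 0.18, adjusted p = 0.0024), RPS19 (0.56 ± 0.17, adjusted p = 0.0031) and RPS16 (0.46 ± 0.16, adjusted p = 0.01) passed with all 12 libraries and in each fit without 1 library. Their interaction terms were 0.45, 0.43, 0.39, 0.37 and 0.28 without replicate 1. RPS29 (0.50) and RPS7 (0.43) also passed without replicate 1, and RPLP2 (0.39) did not.

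On the family's own scale, which sets the family median near 0, members with positive and with negative interaction terms both passed with all 12 libraries. There 7 genes were positive, the 5 above with RPS7 and RPS29, and 8 were negative, namely RPL7A, RPL10A, RPL15, RPL23, RPL29, RPL34, RPS4X and RPS18, where 13.4% of rows were positive and 19.0% negative. All 15 passed with and without replicate 1 on that scale, on which the median of all rows shifted by -0.14. RPS4X had an interaction term of -0.46 ± 0.10 (adjusted p = 7.8e-05, DESeq2) there, and of -0.29 ± 0.15 (adjusted p = 0.12) with the scaling over all genes. That scaling gave 8 positive and 0 negative calls with all 12 libraries, so the split by direction depends on the scale.

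In DMSO, the family's difference between genotypes depended on sgControl DMSO replicate 1. With all 12 libraries, 1 gene was higher in the knockout and 1 lower, against 16.2% and 15.2% of the 19757 rows tested, and the median log2 fold change was 0.02. Without that replicate, 54 of the 77 genes were higher and 1 lower, against 20.2% and 18.6% of rows, with a median of 0.21. Without replicate 3 of sgControl in DMSO, 0 were higher and 9 lower, against 16.9% and 16.8% of rows. The 54 higher genes comprised 33 large-subunit and 21 small-subunit genes. RPL29 had 44959, 35069 and 29745 normalised counts in sgControl and 44464, 49010 and 45666 in the knockout, a log2 fold change of 0.34 ± 0.12 (adjusted p = 0.014, DESeq2) and 0.52 without the replicate. Its groups overlapped through replicate 1. RPL22 was lower in the knockout, at 10279 to 10734 against 11294 to 13990, with no overlap and a log2 fold change of -0.24 ± 0.08 (adjusted p = 0.011, DESeq2). Neither call held in every fit that left out 1 library.

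In abemaciclib, where replicate 1 of sgControl in DMSO is not among the libraries compared, RPS27, RPL21, RPS19, RPSA and RPS2 were the members with the largest differences, all higher in the knockout. With all 12 libraries, 22 of the 77 genes were higher and 1 lower, against 27.5% and 26.4% of the 22260 rows tested, so the share of higher genes (22 of 77) was near the background and the share of lower genes well below it. The median log2 fold change was 0.19 for the family and 0.02 for all rows, and 65 of the 77 genes lay above 0. With the replicate number as a block, which the samples of this comparison share, 29 genes were higher and 3 lower, against 27.7% and 26.7% of rows. Without sgControl DMSO replicate 1, which enters here only through the shared estimate of the spread and the scaling, 45 were higher and 4 lower, against 27.2% and 26.2% of rows. Without replicate 3 of that group, 34 were higher and 4 lower, against the same 27.2% and 26.2%. A group of 13 passed as higher with all 12 libraries and in each fit without 1 library, among them RPL10, RPL12, RPL21, RPL23A, RPLP2, RPS2, RPS9, RPS15, RPS16, RPS19, RPS27 and RPSA. The share of all rows that passed as higher in every such fit was not computed, so the size of this group has no background beside it. This comparison and the response in sgControl share the sgControl abemaciclib libraries, so their values are not independent.

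RPS27 showed the largest difference, with 39509, 35686 and 40507 normalised counts in sgControl and 63843, 60599 and 65691 in the knockout. Every knockout library lay above every sgControl library, and the log2 fold change was 0.72 ± 0.12 (adjusted p = 1.1e-08, DESeq2). RPL21 (0.61 ± 0.12), RPS19 (0.53 ± 0.12), RPSA (0.48 ± 0.13) and RPS2 (0.48 ± 0.12) followed, with adjusted p between 2.2e-06 and 0.00043 (DESeq2). RPS2, which has the most counts in the family, had 360289, 306431 and 313572 normalised counts in sgControl and 480949, 427578 and 454847 in the knockout. RPL10, which joins the 60S subunit late in its assembly, was at 0.39 and RPL12 at 0.33. RPL22 was the gene that passed as lower, at 18901, 17394 and 18402 against 15475, 13506 and 14640 (-0.33 ± 0.08, adjusted p = 0.00013, DESeq2). On the family's own scale 13 genes were higher and 14 lower in this comparison, where 17.6% of rows were higher and 28.4% lower, and the median of all rows shifted by -0.19.

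**Figure D5:**
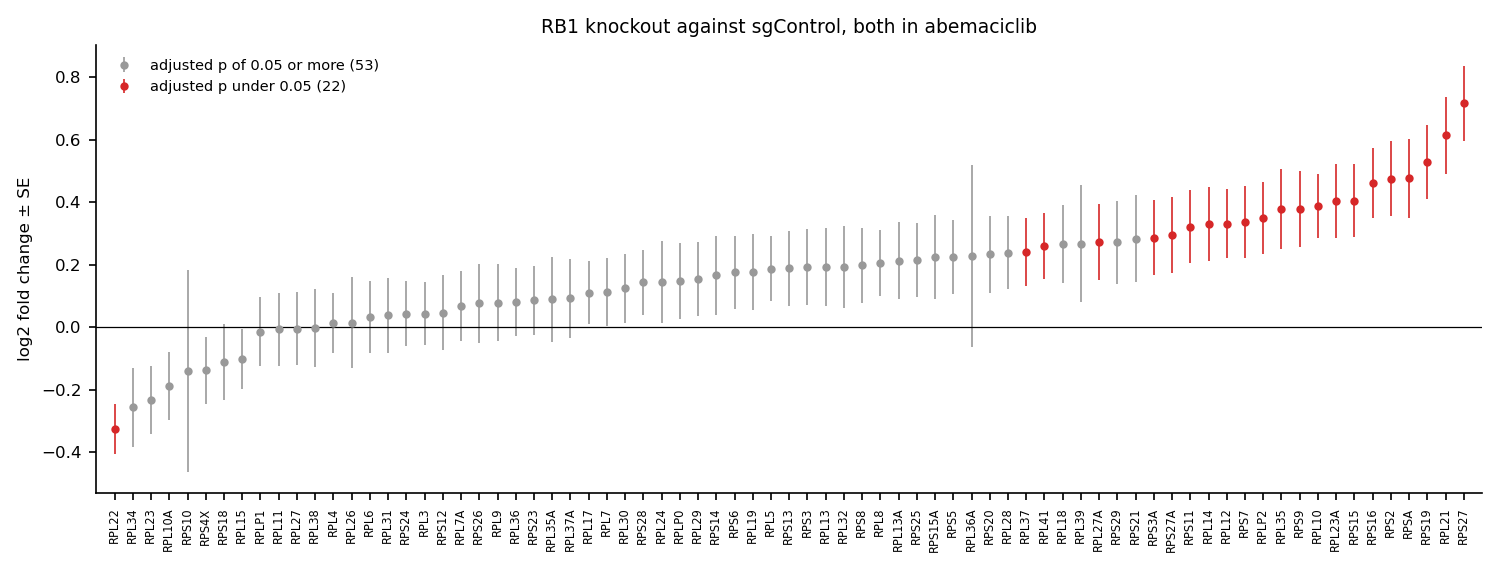
Log2 fold change ± SE of 75 of the 77 genes between RB1 knockout and sgControl cells, both in abemaciclib, with all 12 libraries, ordered from lowest to highest. Red marks the 22 genes with an adjusted p under 0.05, which are RPL22 on the left and 21 genes between RPL37 at 0.24 and RPS27 at 0.72 on the right.

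Scaling by total counts in place of the median of ratios moved these splits. It gave 48 lower and 3 higher members in the sgControl response and 31 positive interaction terms and 0 negative. In the knockout against sgControl, both in abemaciclib, it gave 51 higher and 1 lower member. The shares of all rows under that scaling were 30.4% lower and 20.3% higher, 27.7% positive and 15.7% negative, and 31.4% higher and 21.6% lower. The median of all rows moved by -0.12, 0.14 and 0.11 log2 units in these 3 comparisons, and the family medians became -0.29, 0.28 and 0.30. The subunit ratio and the ratio of RPS27 to RPS4X have no such dependence.

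The L-suffixed paralogues, copies that can take their parent's place in the ribosome or have other roles, were tested as rows of their own. RPS27L, a p53 target, had 7873, 5757 and 5646 normalised counts in sgControl DMSO, 2460, 2472 and 2533 in sgControl abemaciclib, 5673, 5630 and 5279 in knockout DMSO and 5013, 4637 and 4966 in knockout abemaciclib. The 3 treated sgControl libraries lay far below the other 9. Its log2 fold change was -1.37 ± 0.10 in sgControl (adjusted p = 7e-38, DESeq2), or -1.20 without replicate 1, and -0.18 ± 0.10 in the knockout (adjusted p = 0.19, and 0.00067 without replicate 1), with an interaction term of 1.19 ± 0.15 (adjusted p = 1.1e-14). RPL26L1 fell in both genotypes, by -0.38 in sgControl and -0.29 in the knockout, and its interaction term of 0.09 did not pass. RPL7L1 fell in the knockout (-0.27) and was at 0.07 in sgControl. RPL22L1, whose parent RPL22 rose, was lower in the knockout in DMSO, at 187, 156 and 182 against 329, 246 and 255 normalised counts (-0.66 ± 0.15, adjusted p = 0.00014, DESeq2), and did not pass in either drug response. RPL36AL did not pass in any of the 5 comparisons with all 12 libraries.

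RPL3L, a paralogue expressed mainly in striated muscle, was near the detection limit. It had 1.86, 0.881 and 9.45 normalised counts in sgControl DMSO, 0, 1.77 and 0.881 in sgControl abemaciclib, 27.3, 25.3 and 37.5 in knockout DMSO and 56.6, 65.3 and 60.5 in knockout abemaciclib. All 6 knockout libraries lay above all 6 sgControl libraries. RPL10L and RPL39L had counts in 2 libraries and 1 library and were not tested. Of the ribosomal proteins whose symbols fall outside the pattern, FAU did not pass in any of the 5 comparisons with all 12 libraries, and RACK1, a scaffold on the 40S subunit, was higher in the knockout in DMSO (0.28, adjusted p = 0.031, DESeq2) and in abemaciclib (0.44, adjusted p = 0.00016).

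Reads that fit a member and its processed pseudogene can be split between them. The 1225 pseudogene rows, of which 514 had counts, held 0.139%, 0.105%, 0.151% and 0.150% of counts on average in sgControl DMSO, sgControl abemaciclib, knockout DMSO and knockout abemaciclib. RPS2P5, the pseudogene row with the most counts, had a log2 fold change of -0.33 in the sgControl response, beside -0.28 for RPS2. In the knockout against sgControl, both in abemaciclib, it was at 0.52, beside 0.48 for RPS2. Of the pseudogene rows tested in the sgControl response, 14 of 253 were lower (5.5%) and 8 higher (3.2%), against 23.9% and 24.1% of all rows. Without replicate 1 of sgControl in DMSO, 9 of 202 were lower and 11 higher, against 25.8% and 25.7%. These shares were well below those of all rows.

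Genes with and without the tract at their start were also set side by side in the sgControl response. The 46 members with a tract exactly at the annotated start had a median log2 fold change of -0.13 with 12 lower and 1 higher, and the 16 with an entry but no tract there a median of -0.13 with 4 lower and 3 higher, beside the 23.9% of all rows that were lower and 24.1% higher. Without sgControl DMSO replicate 1 the direction turned, to a median of 0.05 with 7 lower and 15 higher for the 46 and a median of 0.06 with 4 lower and 6 higher for the 16. In RB1 knockout against sgControl cells, both in abemaciclib, the medians were 0.19 (15 higher, 1 lower) and 0.08 (2 higher, 0 lower). Without that replicate they were 0.19 (28 and 2) and 0.08 (6 and 1). Over all rows 27.5% were higher and 26.4% lower in this comparison with all 12 libraries. Other motifs searched on both strands of the 300 bases around the start were the ETS core CCGGAAG, found in 35.5% of the members' promoters and 12.2% of all, the YY1 core AAGATGGC (9.7% and 3.5%) and the E2F sites TTTCCCGC or TTTGGCGC (4.8% and 2.7%).

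Transcript length was followed as well. Among members under 1 kb, 17 of 44 were lower and 1 higher in the sgControl response, with a median of -0.20. Of 622 other genes of that length with a mean of at least 100 normalised counts, 218 were lower and 196 higher, with a median of -0.02. The share of lower members was thus near that of other short genes. Over all rows 23.9% were lower and 24.1% higher. Without replicate 1 of sgControl in DMSO, 10 of the 44 were lower and 10 higher, beside 199 and 262 of the 622. The medians were -0.02 and 0.09. In RB1 knockout against sgControl cells, both in abemaciclib, members under 1 kb had a median of 0.23, beside -0.13 for the other genes of that length. Those of 2 kb or more had a median of 0.19, beside 0.00.

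Most of the genes that build ribosomes were lower under abemaciclib in sgControl, where 23.9% of all rows were lower and 24.1% higher (15.1% and 15.0% in the knockout). Of 60 ribosome biogenesis genes, 39 were lower and 9 higher in the sgControl response (median -0.31), and 33 of 59 were lower and 2 higher in the knockout response (median -0.21). FBL, the methyltransferase fibrillarin, had 26954, 21892 and 20927 normalised counts in sgControl DMSO and 8190, 7249 and 7689 in sgControl abemaciclib, and 24709, 27235 and 25502 against 21169, 19952 and 20806 in the knockout. Its log2 fold change was -1.59 ± 0.09 in sgControl (adjusted p = 2.4e-72, DESeq2) and -0.32 ± 0.09 in the knockout (adjusted p = 0.0014), with an interaction term of 1.27. GNL2, a nucleolar GTPase of 60S assembly, fell by 1.44 and 0.50 on the log2 scale. RRP12, an export factor, rose in sgControl (0.35) and fell in the knockout (-0.51), with an interaction term of -0.86 ± 0.09 (adjusted p = 8.6e-22, DESeq2). POLR1A, the largest subunit of RNA polymerase I, rose in sgControl (0.46) and was at -0.11 in the knockout. Without replicate 1, 38 biogenesis genes were lower and 11 higher in the sgControl response, against 25.8% and 25.7% of rows.

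Mitochondrial ribosomal proteins, which form a separate ribosome, were also mostly lower. Of 77 tested, 48 were lower and 4 higher in the sgControl response (median -0.30), against 23.9% and 24.1% of all rows. In the knockout response 34 were lower and 1 higher (median -0.22), against 15.1% and 15.0%. Without replicate 1 of sgControl in DMSO the counts were 42 and 8 in the sgControl response, against 25.8% and 25.7%. They were 47 and 1 in the knockout response, against 18.8% and 17.7%. MRPL11 fell by 1.11 on the log2 scale in sgControl and was at -0.04 in the knockout, MRPL39 fell by 1.12 and 0.41, and MRPS25 rose by 0.52 in sgControl and was at 0.02 in the knockout.

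Of 17 TOP genes outside the ribosome, 8 were higher and 3 lower in the sgControl response (median 0.14), beside 24.1% and 23.9% of all rows, and 8 were higher and 0 lower in the knockout response (median 0.16), beside 15.0% and 15.1%. Without sgControl DMSO replicate 1 these counts were 11 and 3, and 11 and 1, beside 25.7% and 25.8%, and 17.7% and 18.8%, of all rows. On the scale of the 77 ribosomal protein genes they were 9 and 3, and 1 and 0. EEF2, the elongation factor that moves the ribosome along mRNA, rose from 262899, 247649 and 215552 normalised counts to 448641, 386222 and 390882 in sgControl (0.76 ± 0.08, adjusted p = 6.5e-20, DESeq2) and from 308447, 344860 and 315496 to 384841, 375732 and 382924 in the knockout (0.24 ± 0.08, adjusted p = 0.013). Its interaction term was -0.52 ± 0.11. EIF2S3, a subunit of the initiation factor that brings the first tRNA, rose in both (0.60 and 0.34). HNRNPA1, an RNA-binding protein, fell in sgControl (-0.92) and was at -0.12 in the knockout, and the nucleolar chaperone NPM1 fell in sgControl (-0.53) and was at 0.16 in the knockout. Their interaction terms were 0.80 and 0.70.

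Of 10 genes that regulate TOP mRNAs or ribosomal protein genes, 2 were higher and 3 lower in the sgControl response. Without replicate 1 of sgControl in DMSO, 2 were higher and 4 lower, against 25.7% and 25.8% of all rows. With all 12 libraries the shares over all rows were 24.1% higher and 23.9% lower, so the list's counts were near the background. TSC2 and TSC1, which restrain mTORC1, rose by 0.56 and 0.48, and EIF4EBP2, a translational repressor that mTORC1 inactivates, fell by 0.59. The other 2 genes that were lower were RPS6KB2 (-0.31), an S6 kinase, and MYC (-0.18), which rose in the knockout (0.26) and had an interaction term of 0.44 ± 0.10 (adjusted p = 3.7e-05, DESeq2).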

How the data were processed

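RNA-seq reads of 12 libraries, 4 groups of 3, were counted per gene by the authors, and the raw counts were deposited as a table. Per the study's methods and processing notes, reads were trimmed with BBDuk, aligned to hg38 with STAR (2.7.5b) and counted with featureCounts (2.0.1). Strand and multi-mapping settings are not given in the sources used here. The labels name a directional kit, whereas the methods describe a 3′ mRNA-seq kit, so how a transcript's length bears on its count could not be settled. Of 60656 rows, 44 without a gene name (0.0% of counts) were dropped.

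Counts were fitted with DESeq2 (1.42.0, R 4.3.3) over all 12 libraries with group as the only term, median-of-ratios scaling, 2-sided Wald tests and Benjamini-Hochberg adjustment over all rows tested (threshold 0.05), without shrinkage. No p was adjusted over the family alone. Alternatives were edgeR (4.0.16, quasi-likelihood), other scalings, a filter (at least 10 counts in 3 libraries), the compared samples alone, a replicate block and leaving out each library. The scripts were tested on simulated data. The family scale was added after the data were seen. Library totals, from 39907318 to 81636393, set the counting precision, and p-values measure the spread between these samples, whose cultures the labels call biological replicates.

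The members and lists were chosen with earlier results of these data known. Named genes were 26 members fixed by role, the 3 members per direction with the largest change among those called with a mean of at least 100 normalised counts and groups that did not overlap, the paralogues, FAU, RACK1, the 3 most abundant pseudogenes, 2 genes per direction of each other list, and RB1. Members named outside this rule in lists of calls, such as RPS16, RPS7, RPS29, RPL15 and RPL10A, were chosen after their values were seen. Samples with the same replicate number deviated together in the comparison of genotypes under abemaciclib (r = 0.142, 0.243 and 0.106 for numbers 1 to 3, across 11885 genes, which are not independent), so the blocked counts stand beside it. A few items are not reported here, in the text or in plots of single genes. Positions come from GENCODE and RefSeq annotation of GRCh38.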

Additional observations from a re-analysis of the deposited data

Results flagged for a closer look

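The interaction term, the log2 response to abemaciclib in the knockout minus that in sgControl, passed its own test (DESeq2, adjusted p under 0.05 with all 12 libraries) for 8 members and 3 paralogues. The 8 of 77 members (10.4%) were all positive, where 21.0% of the 21008 rows tested were positive and 20.2% negative. The share of positive members was thus below that of all rows. Among the members it was 0.65 for RPS27, 0.64 for RPL21, 0.61 for RPSA, 0.56 for RPS19, 0.50 for RPS29, 0.46 for RPS16, 0.43 for RPS7 and 0.39 for RPLP2. RPLP2 did not pass without sgControl DMSO replicate 1 (0.22, adjusted p = 0.069, DESeq2). Among the paralogues it was 1.19 for RPS27L, -0.34 for RPL7L1 and 3.28 for RPL3L, whose fitted value rests on fewer than 10 normalised counts in each sgControl library.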

How the results depend on the processing

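Counts of members are given as higher and lower. Shares of all rows moved with the setting too. For the sgControl response, median-of-ratios scaling gave 24.1% and 23.9%, total counts 20.3% and 30.4%, and the family scale 24.8% and 16.4%. In that order, the interaction gave 21.0% and 20.2%, 27.7% and 15.7%, and 13.4% and 19.0%. The genotypes in abemaciclib gave 27.5% and 26.4%, 31.4% and 21.6%, and 17.6% and 28.4%. Counts with no share here or above have no background beside them. Leaving out 1 library at a time gave 3 to 22 higher and 13 to 48 lower in the sgControl response, 2 to 10 and 0 to 7 in the knockout response, 5 to 32 and 0 to 10 for the interaction, 0 to 54 and 0 to 9 between genotypes in DMSO, and 13 to 45 and 1 to 4 between genotypes in abemaciclib. The highest counts came from leaving out sgControl DMSO replicate 1 or 3, and without replicate 3 the sgControl response gave 3 and 48, the interaction 32 and 0, the genotypes in DMSO 0 and 9 and the genotypes in abemaciclib 34 and 4. Total counts gave 48 lower in the sgControl response, 2 lower in the knockout response, and 31 higher for the interaction and 51 for the genotypes in abemaciclib. Totals without mitochondrial transcripts gave 40 lower, 6 higher, and 26 and 48 higher in these 4. The 6 compared samples alone gave 12 and 12 in the knockout response and 47 and 4 between genotypes in abemaciclib. The family scale gave 19 and 15, 5 and 4, 7 and 8, 1 and 3, and 13 and 14 in the 5 comparisons in the order above, and without sgControl DMSO replicate 1 it gave 24 and 18, 9 and 9, 10 and 15, 6 and 6, and 17 and 21. On the latter scale RPL38 (0.14) and RPL39 (0.17) reversed in the sgControl response, RPL26 (-0.24) and RPL38 (-0.18) in the interaction, and RPL3 (-0.14) and RPL26 (-0.18) between genotypes in abemaciclib. With 1 library left out, RPL39 ran from -0.24 to 0.19 in the sgControl response, and between genotypes in DMSO RPL5 ran from -0.14 to 0.14, RPL38 from -0.17 to 0.19, RPL39 from -0.21 to 0.23, RPS19 from -0.17 to 0.16, RPS27A from -0.17 to 0.18 and RPL21 from -0.15 to 0.19. Member shares were 6.81%, 8.10% and 8.41% without mitochondrial transcripts, and 5.74%, 6.98% and 7.06% without RPS2, in sgControl abemaciclib, knockout DMSO and knockout abemaciclib. The cause of these shifts was not tested beyond the settings' own construction.

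With the replicate number as a block, the 5 comparisons gave 5 and 23, 2 and 2, 10 and 0, 1 and 1, and 29 and 3. Over all rows, the genotypes in abemaciclib gave 27.7% higher and 26.7% lower with the block, and no share is given for the other comparisons. Of the 4 comparisons in which the pairing was checked, the interaction being left aside, the last alone had a positive r for every replicate number. In the sgControl response r was 0.237, 0.198 and -0.070 for numbers 1 to 3. It was -0.022, -0.068 and 0.021 in the knockout response and -0.244, -0.016 and 0.075 between genotypes in DMSO.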
